A study of Mus musculus with 6 samples.

Results

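Expression of 9 complement and clusterin genes was examined in bulk RNA sequencing of whole mouse ovaries: C1qa, C1qb, C1qc, C1ra, C1s1, C3, C4b, Cfb and Clu, taken by symbol from a table of 35415 genes and read with and without wild-type replicate 3. The 3 Rnf111+/- libraries and the 3 wild-type libraries are labelled with 1 mouse each, all aged 3 months and taken at estrus, so age, tissue and cycle stage were shared by both genotypes. Rnf111 encodes Arkadia, a ubiquitin ligase that promotes TGF-beta family signalling by marking its inhibitors for degradation, and the mutant mice were made with CRISPR-Cas9 to ask how a damaging change in 1 copy bears on premature ovarian insufficiency. Neither the strain nor the position of the edit is stated in the sources used here, and they do not say from which edited line these mice came.

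The complement system is a set of plasma and tissue proteins that tag targets for uptake or lysis. In its classical pathway C1q, built from chains encoded by C1qa, C1qb and C1qc, recognises a surface and switches on the proteases C1r and C1s. Of these, C1s cuts C4 and C2. All routes meet at C3, the central component, whose activation the alternative pathway amplifies through factor B, the product of Cfb, and clusterin, the product of Clu, is a secreted chaperone that keeps the terminal complex from inserting into membranes. Liver makes most of the plasma pool, C1q comes largely from macrophages and related cells, and fibroblasts are a known local source of C1r, C1s and C3. Clu RNA is also known as a marker of regressing tissue in the rat prostate.

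Libraries held 38261449 to 39474515 counts, and the lowest count of any of the 9 genes in any library was 108 (Cfb), so all 9 passed the filter on low counts, as did 16841 genes in all. Levels are given as CPM, counts scaled to a common library size after TMM normalisation. Rnf111 itself was at 44.6 ± 0.394 CPM in Rnf111+/- ovaries and 53.9 ± 0.477 CPM in wild-type ovaries (SD, n = 3 each; log2 fold change -0.27 ± 0.07, SE; adjusted p = 0.04, edgeR), a call lost without any 1 library other than wild-type replicate 3 (adjusted p = 0.106 to 0.146). Wild-type replicate 3 stood apart: the correlation of its log2 CPM with wild-type replicates 1 and 2, taken over genes, was 0.974 and 0.975, where wild-type replicates 1 and 2 reached 0.989 with each other and pairs of Rnf111+/- libraries 0.986 to 0.989. Granulosa genes were detected in every library, with Inha at 2524 to 3563 CPM in Rnf111+/- and 1147 to 2592 CPM in wild-type ovaries. Of 5 liver genes, Alb, Ttr, Serpina1a and Fga had 0 to 5 counts in each library, while Apoa1 was at 46.7 to 58.5 CPM in Rnf111+/- and 47.0 to 56.1 CPM in wild-type libraries.

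Clusterin rose and the central component C3 fell in Rnf111+/- ovaries. Clu, C3 and C1s1 passed edgeR's quasi-likelihood test with Benjamini-Hochberg adjustment over all tested genes at 0.05. Of the 9 genes, 1 rose, 2 fell and 6 did not pass, where 3.90% of all tested genes rose and 5.74% fell (9.64% in either direction). Without wild-type replicate 3, 4 rose (the C1q genes and Clu), 3 fell (C1ra, C1s1 and C3) and 2 did not pass, where 7.37% of tested genes rose and 8.82% fell (16.2% in either direction). The median log2 fold change of the 9 genes was -0.41 with all libraries and -0.17 without wild-type replicate 3, beside -0.008 and 0.009 over all tested genes. All 3 Rnf111+/- libraries lay below all 3 wild-type libraries for 4 genes (C1ra, C1s1, C3 and C4b) and above them for 1 (Clu), against 16.9% and 15.1% of tested genes. In whole ovaries, fewer cells of a type and less RNA per cell cannot be told apart.

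**Figure D1:**
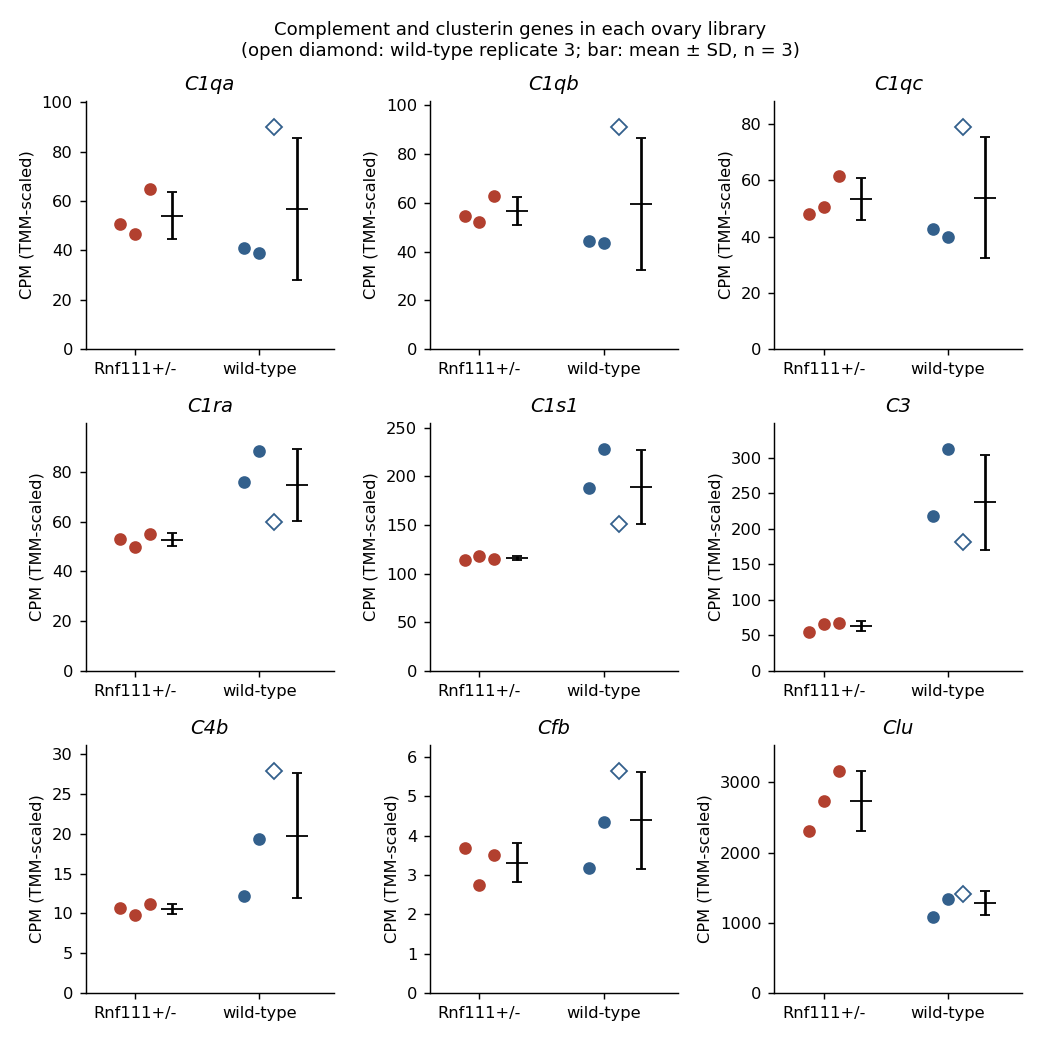
Each panel plots the TMM-scaled CPM of 1 gene (vertical axis, from 0) in the 3 Rnf111+/- and 3 wild-type libraries, with the mean ± SD (n = 3) beside each group and wild-type replicate 3 as an open diamond. C3 and C1s1 lay lower and Clu higher in every Rnf111+/- library, while the diamond was the highest point of all 6 for C1qa, C1qb, C1qc, C4b and Cfb.

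The genes sit in a few clusters of the genome. C1qb, C1qc and C1qa are direct neighbours on chromosome 4 and C1ra and C1s1 on chromosome 6, while C4b, Cfb and C3 are on chromosome 17, with Cfb next to C2, and Clu is on chromosome 14 (protein-coding genes of RefSeq, GRCm38.p6). Promoters, from 250 bases before to 50 after the start of the gene, were found in RefSeq's GRCm38.p6 table for 5 of the 9 genes. They are shown because they set genes that were lower in Rnf111+/- ovaries beside C1q genes that were not. All are written 5′ to 3′ on the strand of the gene: C3 at chr17:57228087-57228386 (minus), C1s1 at chr6:124542310-124542609 (minus, the first of the starts listed), C1ra at chr6:124512371-124512670 (plus), C1qb at chr4:136886151-136886450 (minus) and C1qc at chr4:136892865-136893164 (minus). Capitals mark every match on either strand to the C/EBP motif TTNNGNAA, the PU.1 motif GAGGAA, the NF-kB motif (GGGA, any 4 bases, CC), the GAS motif TTCNNNGAA bound by STAT factors, the ISRE motif (GAAA, any 2 bases, GAAA) and the SMAD motif CAGACA.
C3: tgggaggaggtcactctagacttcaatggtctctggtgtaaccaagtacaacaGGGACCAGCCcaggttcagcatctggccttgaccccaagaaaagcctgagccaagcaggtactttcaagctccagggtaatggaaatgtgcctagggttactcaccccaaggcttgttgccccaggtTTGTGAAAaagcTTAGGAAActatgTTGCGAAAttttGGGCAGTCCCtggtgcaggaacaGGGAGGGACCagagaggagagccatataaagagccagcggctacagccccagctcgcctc
C1s1: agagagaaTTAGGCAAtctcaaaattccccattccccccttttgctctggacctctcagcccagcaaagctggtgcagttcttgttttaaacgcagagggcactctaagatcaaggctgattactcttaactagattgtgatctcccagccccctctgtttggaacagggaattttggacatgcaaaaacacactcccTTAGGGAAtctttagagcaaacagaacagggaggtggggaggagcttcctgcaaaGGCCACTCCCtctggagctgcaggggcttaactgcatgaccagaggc
C1ra: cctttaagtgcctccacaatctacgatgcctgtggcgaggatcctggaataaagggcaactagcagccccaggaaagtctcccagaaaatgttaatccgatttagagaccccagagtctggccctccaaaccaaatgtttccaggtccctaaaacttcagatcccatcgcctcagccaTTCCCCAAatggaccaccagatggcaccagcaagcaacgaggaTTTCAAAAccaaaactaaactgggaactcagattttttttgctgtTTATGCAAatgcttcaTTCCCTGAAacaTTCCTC
C1qb: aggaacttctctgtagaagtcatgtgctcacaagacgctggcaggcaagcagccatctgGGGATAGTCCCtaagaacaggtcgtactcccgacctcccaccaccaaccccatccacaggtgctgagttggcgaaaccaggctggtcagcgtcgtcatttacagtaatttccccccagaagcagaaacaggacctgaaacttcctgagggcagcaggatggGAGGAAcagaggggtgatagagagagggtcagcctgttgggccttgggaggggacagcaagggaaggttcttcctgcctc
C1qc: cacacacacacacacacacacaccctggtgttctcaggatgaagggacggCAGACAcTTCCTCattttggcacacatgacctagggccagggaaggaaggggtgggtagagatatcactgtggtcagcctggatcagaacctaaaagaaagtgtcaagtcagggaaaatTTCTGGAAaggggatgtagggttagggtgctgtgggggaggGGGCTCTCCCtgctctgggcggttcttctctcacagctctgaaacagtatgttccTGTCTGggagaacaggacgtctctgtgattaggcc

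The C/EBP letters occurred 3 times each in the C3 and C1ra promoters and 2 times in the C1s1 promoter shown. The window of the other C1s1 start listed, which is not shown, held 1 such match, at -90. C1qc also had 1 match and C1qb had 0. At least 1 such match is held by 40.7% of the 27025 promoters in the table. In C3 the matches began at -70, -58 and -45 from the start. NF-kB letters were found 3 times in C3, at -197, -33 and -10, 2 times in C1qb as an overlapping pair, 1 time each in C1s1 and C1qc and not in C1ra, against 20.5% of all promoters. PU.1 letters were present once each in C1qb, C1qc and C1ra (28.3% of promoters), GAS letters once in C1ra (8.47%) and SMAD letters 2 times in C1qc (21.0%). No ISRE match was found in these windows (3.49% of promoters). In the C1qc window, the SMAD and PU.1 matches lie 1 base apart and no matches of different motifs overlap. A match is a string of letters in the reference genome, and binding was not measured.

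The chains of C1q, the recognition molecule, did not pass with all libraries and rose without wild-type replicate 3. C1qa, which encodes the A chain, was at 50.8, 46.6 and 64.8 CPM in Rnf111+/- libraries, against 41.2, 39.1 and 89.8 CPM in wild-type libraries. C1qb, for the B chain, was at 54.7, 52.3 and 62.9 CPM in Rnf111+/- and 44.3, 43.4 and 90.9 CPM in wild-type libraries. C1qc, for the C chain, was at 48.0, 50.3 and 61.6 CPM in Rnf111+/- and 42.8, 40.0 and 78.7 CPM in wild-type libraries. For each chain the Rnf111+/- values lay above wild-type replicates 1 and 2 and below wild-type replicate 3, which held 2.24, 2.07 and 1.90 times the mean of the other wild-type libraries for C1qa, C1qb and C1qc.

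None of the chains passed with all libraries, with log2 fold changes of -0.07 ± 0.36 for C1qa (SE, adjusted p = 0.932), -0.07 ± 0.30 for C1qb (0.915) and -0.01 ± 0.28 for C1qc (0.985). Intervals of 2 standard errors on the fold reached from 0.583 to 1.56 for C1qa, so that folds within that range could not be told from no change. Without wild-type replicate 3 each chain was higher in Rnf111+/- ovaries and passed edgeR's test, by 0.44 ± 0.13 for C1qa (adjusted p = 0.0488), 0.38 ± 0.09 for C1qb (0.018) and 0.38 ± 0.11 for C1qc (0.0395). In the fits that left out any other library the adjusted p was at least 0.704 for all 3 chains. Under the other scalings, filters and tools the log2 values of the chains lay between -0.07 and 0.05, on both sides of 0. The C1q result thus differed with and without wild-type replicate 3.

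The chains kept nearly the same proportions in all libraries. Of the summed C1q counts, C1qa took 31.2 to 34.2% in Rnf111+/- and 32.0 to 34.6% in wild-type libraries, C1qb took 33.2 to 35.6% in Rnf111+/- and 34.6 to 35.4% in wild-type libraries, and C1qc took 31.3 to 33.7% in Rnf111+/- and 30.4 to 33.4% in wild-type libraries. These shares are of counts and are not corrected for transcript length. The summed C1q level was 149 to 189 CPM in Rnf111+/- ovaries, against 128, 122 and 259 CPM in wild-type replicates 1, 2 and 3.

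The level of macrophage markers was read beside C1q. Of 18 macrophage markers, all of which were tested, none rose and 1 fell, and without wild-type replicate 3, 3 rose (Cd68, Mertk and Ms4a7) and 1 fell. The fall was that of Cd163, a haemoglobin scavenger receptor, at 0.598, 0.664 and 0.731 CPM in Rnf111+/- and 1.67, 2.77 and 1.84 CPM in wild-type libraries (log2 -1.65 ± 0.33, adjusted p = 0.0194, edgeR), and it was lost without any 1 of the Rnf111+/- libraries or wild-type replicate 2 (adjusted p = 0.068 to 0.0822). The summed level of the list was 362 to 455 CPM in Rnf111+/- and 332 to 496 CPM in wild-type ovaries, and no marker was at 0 in all libraries. Lyz2, which encodes lysozyme and was the most abundant of them, was at 165 ± 30.7 CPM in Rnf111+/- and 175 ± 25.1 CPM in wild-type ovaries. Wild-type replicate 3 was the highest of the wild-type libraries for 15 of the 18 markers. All Rnf111+/- libraries lay below all wild-type libraries for 3 of the 18 markers (Cd163, Mrc1 and Fcgr1) and above them for 1 (Mertk). Over all tested genes the shares were 16.9% and 15.1%. As for calls, 3.90% of all tested genes rose and 5.74% fell, and without wild-type replicate 3, 7.37% rose and 8.82% fell. Mrc1, a mannose receptor, was at 12.5 to 17.5 CPM in Rnf111+/- and 18.8 to 27.9 CPM in wild-type libraries (adjusted p = 0.098, edgeR). Fcgr1, an Fc receptor, was at 3.44 to 3.58 CPM in Rnf111+/- and 3.86 to 9.14 CPM in wild-type libraries (0.191). Mrc1 and Fcgr1 were highest in wild-type replicate 3, as C1q was, and were chosen after their values were seen. The ratio of summed C1q to summed macrophage markers was 0.425, 0.410 and 0.416 in Rnf111+/- libraries, against 0.347, 0.369 and 0.523 in wild-type libraries, so the groups overlapped on this scale too. The part that macrophage number plays in the C1q values was not tested.

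**Figure D2:**
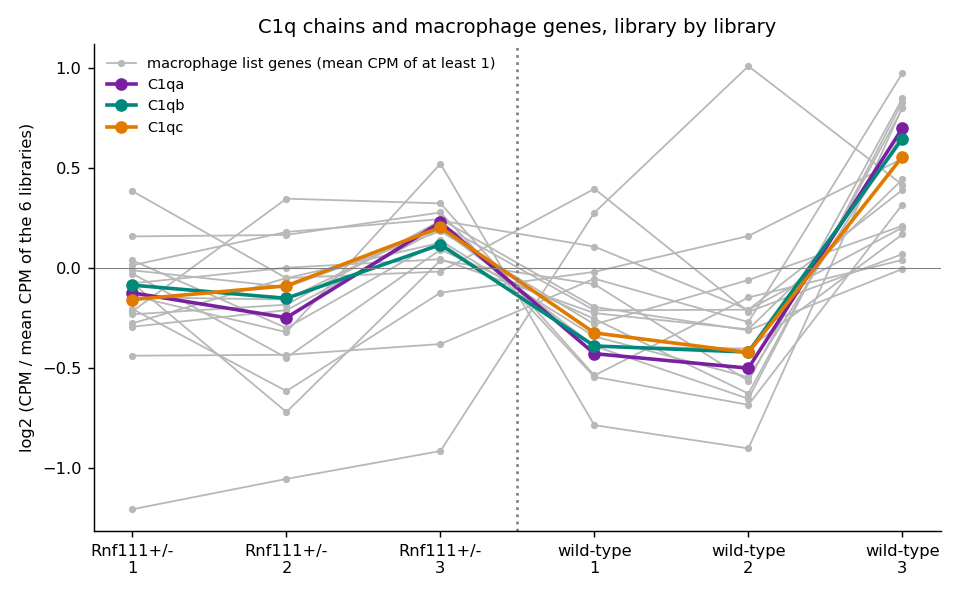
The vertical axis gives the log2 ratio of a gene's CPM to its mean over the 6 libraries, which stand along the horizontal axis with Rnf111+/- on the left. Coloured lines are the C1q chains and grey lines the 17 macrophage markers with a mean of at least 1 CPM, joined only to show the same gene. The chains run together, lowest in wild-type replicates 1 and 2 and highest in wild-type replicate 3.

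The proteases that C1q activates were lower in Rnf111+/- ovaries, and 1 of the 2 passed. C1s1, the mouse gene for C1s, was at 114, 118 and 115 CPM in Rnf111+/- libraries, against 188, 228 and 151 CPM in wild-type libraries. The groups did not overlap, and the Rnf111+/- libraries lay within a few CPM of each other. C1s1 fell by 0.71 on the log2 scale (SE 0.13, adjusted p = 0.0178, edgeR), to 61.2% of the wild-type mean. The call was lost without any 1 of the Rnf111+/- libraries and without wild-type replicate 1 (adjusted p = 0.0554 to 0.0763), with log2 values of -0.71 to -0.69, and it held without wild-type replicate 3 at -0.84 ± 0.08 (adjusted p = 6.28e-05).

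C1ra, the gene for C1r, was at 53.2, 49.9 and 55.1 CPM in Rnf111+/- and 75.8, 88.5 and 59.9 CPM in wild-type libraries. The C1ra groups did not overlap either, with wild-type replicate 3 nearest to the Rnf111+/- libraries. The log2 fold change was -0.50 ± 0.13, which missed the threshold in edgeR (adjusted p = 0.0508) and passed in DESeq2 (-0.49 ± 0.15, adjusted p = 0.00953), where 6.96% of tested genes rose, 8.57% fell and 15.5% did either. C1ra also passed when no low-count filter was used (adjusted p = 0.0322) and without wild-type replicate 3 (-0.63 ± 0.09, adjusted p = 0.000593). The ratio of C1s1 to C1ra, each per length, was 1.99 to 2.25 in Rnf111+/- and 2.37 to 2.45 in wild-type libraries. C1rb and C1s2 are close copies of these genes, so reads could be shared between them, but both were low. C1rb was at 0.349 to 0.562 CPM in Rnf111+/- and 0.6 to 0.752 CPM in wild-type libraries, and C1s2 had 1 to 8 counts in Rnf111+/- and 10 to 27 counts in wild-type libraries.

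C3 showed the largest difference of the 9 genes. Its level was 54.8, 66.7 and 66.9 CPM in Rnf111+/- libraries, against 218, 312 and 182 CPM in wild-type libraries. The lowest wild-type library was thus far above the highest Rnf111+/- library, and the spread was wider among wild-type ovaries (62.8 ± 6.92 CPM in Rnf111+/- and 237 ± 67.1 CPM in wild-type, SD, n = 3 each). C3 fell by 1.92 on the log2 scale (SE 0.21, adjusted p = 0.00391, edgeR), to 26.5% of the wild-type mean, with an interval of 2 standard errors on the fold of 0.199 to 0.353. It was called in all 13 alternatives tried, with adjusted p of at most 0.0235, and without wild-type replicate 3 the log2 value was -2.07 ± 0.17 (adjusted p = 0.00062).

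C4b and Cfb were at lower levels than C3 per length in both genotypes, and neither passed edgeR's test. C4b, the mouse gene for C4, was at 10.7, 9.83 and 11.1 CPM in Rnf111+/- and 12.1, 19.3 and 27.9 CPM in wild-type libraries. The groups did not overlap but nearly met at wild-type replicate 1, and wild-type replicate 3 was the highest. The log2 fold change of -0.91 ± 0.27 did not pass in edgeR (adjusted p = 0.0843) and passed in DESeq2 (adjusted p = 0.00735). It passed without wild-type replicate 1 (-1.15 ± 0.18, adjusted p = 0.0154), and not without wild-type replicate 3 (-0.57 ± 0.19, adjusted p = 0.0659). The near-identical copy C4a has no entry by that symbol among the genes counted, so the values given for C4b may hold reads of both.

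Cfb, for factor B, was at 3.69, 2.76 and 3.50 CPM in Rnf111+/- and 3.18, 4.35 and 5.64 CPM in wild-type libraries. The groups overlapped, and the log2 fold change of -0.41 ± 0.26 did not pass in edgeR (adjusted p = 0.374) or in any of the 13 alternatives (adjusted p of at least 0.228). In GENCODE M21, an annotation of GRCm38, the gene model Gm20547 overlaps Cfb on the same strand, Gm16567 overlaps C1s1 on the opposite strand, and a microRNA gene lies within C3 and another within Cfb. None of these overlapping models has an entry by that name among the genes counted. The sources used here do not say how reads of overlapping genes were counted.

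Several marker lists held genes that fell beside C3 and C1s1. Of all tested genes, 3.90% rose and 5.74% fell, and without wild-type replicate 3, 7.37% rose and 8.82% fell. Of 8 stromal and fibroblast markers, 5 fell (Dcn, Lum, Col1a1, Col1a2 and Col3a1) and none rose, with and without wild-type replicate 3, and their summed level was 2088 to 2458 CPM in Rnf111+/- and 3390 to 3977 CPM in wild-type ovaries. The collagen gene Col3a1 was at 619 to 751 CPM in Rnf111+/- and 1192 to 1612 CPM in wild-type libraries, and Col1a2 at 663 to 773 CPM in Rnf111+/- and 865 to 945 CPM in wild-type libraries. Surface epithelium markers had 3 falls among 7 (Krt19, Upk3b and Msln), also without wild-type replicate 3, with summed levels of 374 to 417 CPM in Rnf111+/- and 488 to 541 CPM in wild-type ovaries. Endothelial markers had 3 falls among 6 (Cdh5, Kdr and Emcn), 2 of them without wild-type replicate 3, with sums of 227 to 267 CPM in Rnf111+/- and 307 to 370 CPM in wild-type ovaries. Of 6 theca and interstitium markers, 3 fell (Star, Hsd3b1 and Mgarp) and 1 rose (Cyp17a1), also without wild-type replicate 3, with sums of 8709 to 10764 CPM in Rnf111+/- and 12818 to 13807 CPM in wild-type ovaries. Of these calls, Lum, Col3a1, Star, Mgarp and Cyp17a1 held without any 1 library, while Dcn, Col1a1, Col1a2, Hsd3b1 and the epithelial and endothelial ones were each lost without at least 1 library. The part of these cell types in the lower C3, C1s1 and C1ra was not tested.

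Clusterin moved the other way. Clu was at 2308, 2738 and 3159 CPM in Rnf111+/- libraries, against 1087, 1339 and 1411 CPM in wild-type libraries. Every Rnf111+/- library was above every wild-type library, and here wild-type replicate 3 lay close to wild-type replicate 2. Clu rose by 1.10 ± 0.14 on the log2 scale (SE, adjusted p = 0.00354, edgeR), a 2.14-fold difference with an interval of 2 standard errors of 1.77 to 2.59. It was called in all 13 alternatives, with log2 values from 0.98 to 1.21 and adjusted p of at most 0.0193, and without wild-type replicate 3 it was at 1.18 ± 0.15 (adjusted p = 0.00343). Clu alone took 0.235 to 0.316% of all counts in Rnf111+/- libraries and 0.108 to 0.141% in wild-type libraries.

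Luteal markers went in both directions. Beside the calls below, 3.90% of all tested genes rose and 5.74% fell, and without wild-type replicate 3, 7.37% rose and 8.82% fell. Of 6 corpus luteum markers, none rose and 1 fell (Parm1) with all libraries, and 3 rose (Akr1c18, Sfrp4 and Ptgfr) and 1 fell without wild-type replicate 3. With all libraries 3 of the 6 had log2 fold changes above 0 (Akr1c18, Sfrp4 and Ptgfr) and 3 below 0, Lhcgr at -0.74 ± 0.56 (adjusted p = 0.48), Prlr at -0.53 ± 0.22 (0.189) and Parm1 at -2.22 ± 0.16. The summed level was 5003 to 7662 CPM in Rnf111+/- and 1311, 1655 and 2700 CPM in wild-type replicates 1, 2 and 3. Akr1c18, Sfrp4 and Ptgfr made up most of it in the Rnf111+/- libraries and in wild-type replicate 3. In wild-type replicates 1 and 2 most of it was Prlr (568 and 746 CPM) and Lhcgr (339 and 406 CPM). Of 8 granulosa markers, 1 rose (Cyp19a1) and none fell with all libraries, 2 others rose (Fshr and Inhba) and none fell without wild-type replicate 3, and the summed level was 4622 to 6420 CPM in Rnf111+/- and 2225 to 4537 CPM in wild-type ovaries. No luteal or granulosa marker was at 0 in all libraries, and the part of either cell type in the rise of Clu was not tested. The Cyp19a1 call was lost without any 1 of Rnf111+/- replicate 2 and the 3 wild-type libraries (adjusted p = 0.0568 to 0.0725). Of 3 receptors that bind clusterin, none passed in edgeR with the filter on low counts and all libraries. Lrp2, the endocytic receptor megalin, was at 2.76, 4.50 and 4.99 CPM in Rnf111+/- and 9.37, 8.53 and 5.34 CPM in wild-type libraries, with a log2 fold change of -0.92 ± 0.29 (adjusted p = 0.0813). It passed with no filter (0.0436), in DESeq2 (0.0175) and without wild-type replicate 3 (-1.12 ± 0.24, 0.00933). Lrp8, a lipoprotein receptor of the same family, was at 45.1 ± 7.15 CPM in Rnf111+/- and 50.7 ± 16.1 CPM in wild-type ovaries (adjusted p = 0.7).

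**Figure D3:**
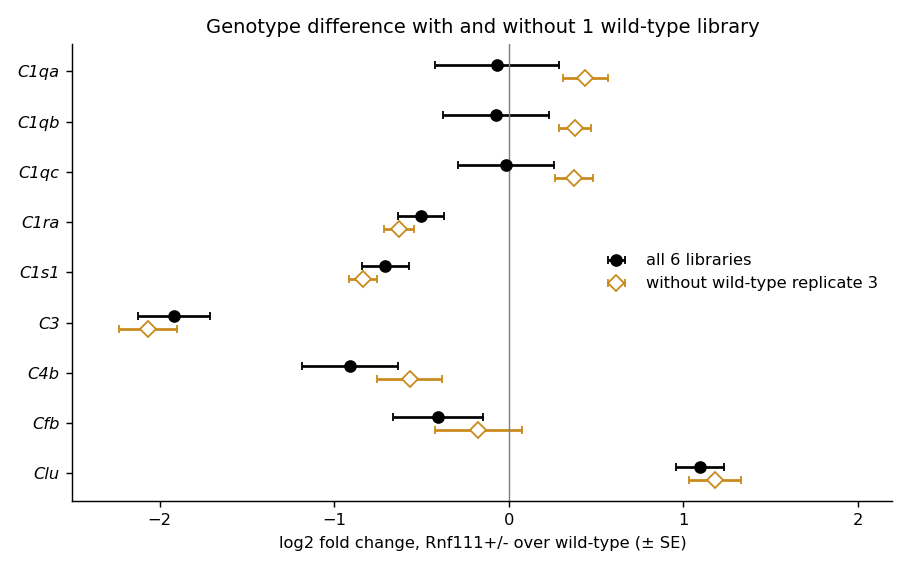
The horizontal axis gives the log2 fold change of each gene, Rnf111+/- over wild-type, with its standard error, from all 6 libraries (filled circles) and without wild-type replicate 3 (open diamonds). C1qa, C1qb and C1qc moved to the right of 0 without that library, to 0.38 to 0.44, while C3 stayed near -2 and Clu near 1.1.

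Levels of different genes were compared per kilobase of exon, with exon lengths from GENCODE M21, which is of an earlier build than the counts. Clu was the highest of the 9 at 796 ± 124 CPM per kb in Rnf111+/- and 372 ± 49.4 CPM per kb in wild-type ovaries (SD, n = 3 each). In wild-type ovaries C1s1 (60.4 ± 12.3 CPM per kb), C1qb (54.7 ± 25.0), C1qa (54.5 ± 27.6) and C3 (46.1 ± 13.1) followed. C1s1 was above C3 in every wild-type library. C1qa and C1qb were below both in wild-type replicates 1 and 2 and above both in wild-type replicate 3. In Rnf111+/- ovaries C3 was at 12.2 ± 1.35 CPM per kb, below C1ra at 17.7 ± 0.879, C1qc at 27.6 ± 3.78, C1s1 at 37.0 ± 0.683, C1qa at 52.0 ± 9.18 and C1qb at 52.0 ± 5.14. C3 was above C1ra in every wild-type library and below it in every Rnf111+/- library on this scale. C4b and Cfb were lowest in both genotypes, C4b at 1.73 to 1.95 CPM per kb in Rnf111+/- and 2.13 to 4.90 CPM per kb in wild-type libraries, and Cfb at 1.17 ± 0.174 CPM per kb in Rnf111+/- and 1.56 ± 0.436 CPM per kb in wild-type ovaries. The ratio of Clu to C3 per kb was 63.0, 61.4 and 70.7 in Rnf111+/- libraries, against 7.45, 6.43 and 11.6 in wild-type libraries.

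**Figure D4:**
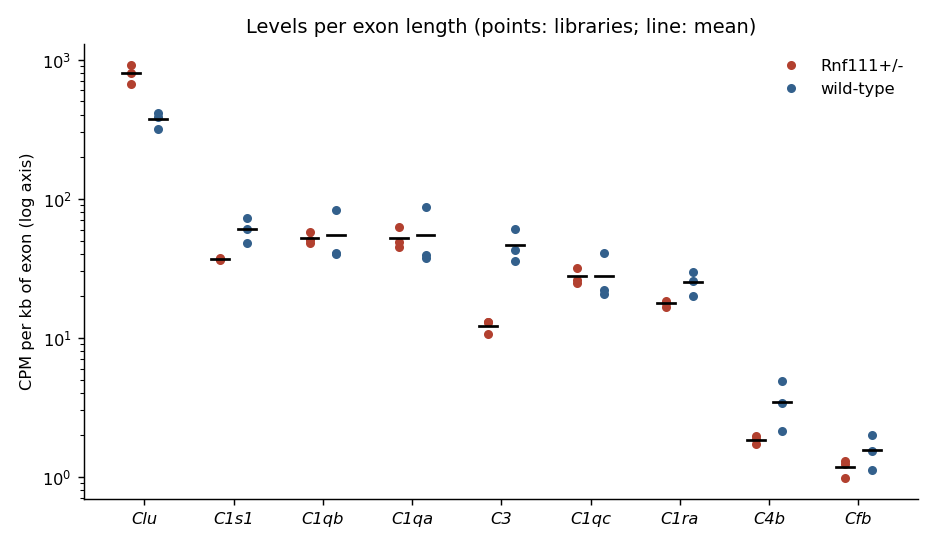
The vertical axis, on a log scale, gives CPM per kb of exon for each gene, with 1 point per library and a line at the mean, Rnf111+/- left of wild-type and genes ordered by the wild-type mean. C3 lies among the C1q genes in wild-type ovaries and below C1ra in Rnf111+/- ovaries.

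The other genes of the pathway were read from lists by role. Of 52 such genes 37 were tested, and none rose, 2 fell and 35 did not pass in edgeR with all libraries (median log2 -0.13). Of all tested genes, 3.90% rose and 5.74% fell in that fit. Without wild-type replicate 3, 5 rose (Hc, C7, C3ar1, Itgb2 and Csmd1), 4 fell (C2, Cd93, Serping1 and Lrp2) and the median was -0.003. There 7.37% of all tested genes rose and 8.82% fell. Itgb2 and Csmd1 were named after their values were seen.

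Among genes that start the classical and lectin pathways, 0 of 8 passed in edgeR. C2, which C1s cuts to form the C3 convertase and which neighbours Cfb, was at 57.3, 48.8 and 62.0 CPM in Rnf111+/- and 69.2, 91.7 and 70.3 CPM in wild-type libraries. Its groups did not overlap, and it missed the threshold in edgeR (-0.46 ± 0.13, adjusted p = 0.0658) and passed with no filter (0.0483), in DESeq2 (0.0208) and without wild-type replicate 3 (-0.51 ± 0.14, 0.037). Mbl2, a mannose-binding lectin, was at 1.52 to 2.59 CPM in Rnf111+/- and 0.843 to 1.02 CPM in wild-type libraries (1.13 ± 0.32, adjusted p = 0.0612), and it passed under the stricter filter (0.0483) and in DESeq2 (0.0177). Mbl1 and Fcnb had no count in any library. In the alternative pathway, Cfd, the protease that cuts factor B and a known adipocyte product, was at 13.3, 6.72 and 3.21 CPM in Rnf111+/- and 5.35, 13.7 and 15.4 CPM in wild-type libraries, with wide overlap (-0.56 ± 0.60, adjusted p = 0.616). Cfp, for the stabiliser properdin, was at 15.5 ± 2.16 CPM in Rnf111+/- and 17.1 ± 2.79 CPM in wild-type ovaries (adjusted p = 0.614).

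Among genes of the terminal pathway, which builds the membrane attack complex, 0 of 3 passed in edgeR with all libraries and no replicate block. Hc, the mouse gene for C5, was at 4.48, 5.47 and 6.50 CPM in Rnf111+/- and 2.53, 1.92 and 5.08 CPM in wild-type libraries. C7, a component that anchors the complex, was at 11.7, 11.2 and 21.7 CPM in Rnf111+/- and 4.64, 6.97 and 10.8 CPM in wild-type libraries. Both were highest in wild-type replicate 3 among wild-type libraries, as C1q was. With all libraries Hc had a log2 fold change of 0.79 ± 0.36 (adjusted p = 0.212, edgeR) and C7 of 0.99 ± 0.37 (0.154), and without wild-type replicate 3 both passed, at 1.31 ± 0.25 (0.00527) and 1.36 ± 0.35 (0.0473). C7 also passed with all libraries in DESeq2 (adjusted p = 0.0221) and in edgeR with the replicate block described below. C9 had no count in any library.

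Of the 10 receptor genes tested, 1 fell. Cd93, a surface protein of endothelium and myeloid cells once described as a C1q receptor, was at 63.8, 58.8 and 61.7 CPM in Rnf111+/- libraries, against 95.9, 98.05 and 101 CPM in wild-type libraries. The groups lay far apart with little spread in either, and Cd93 fell by 0.68 on the log2 scale (SE 0.07, adjusted p = 0.000988, edgeR), with adjusted p of 0.000131 without wild-type replicate 3. Of the 6 endothelial markers given above, 3 also fell, and the part of endothelium in the lower Cd93 was not tested. C3ar1, the receptor for the C3a fragment, was at 10.99, 10.5 and 10.6 CPM in Rnf111+/- and 7.31, 5.16 and 17.4 CPM in wild-type libraries. As with C1q, the Rnf111+/- values lay between wild-type replicate 3 and the other wild-type libraries, with no call for all libraries (0.10 ± 0.42, adjusted p = 0.914) and a call without that library (0.79 ± 0.18, adjusted p = 0.014). Itgb2, a chain of the receptors that bind cleaved C3, was at 10.7, 10.9 and 12.4 CPM in Rnf111+/- and 7.59, 8.35 and 14.2 CPM in wild-type libraries, with adjusted p of 0.7 for all libraries and 0.0432 without wild-type replicate 3.

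Of the 11 regulators tested, 1 fell. Serping1, which encodes the C1 inhibitor that blocks C1r and C1s, was at 97.3, 101 and 115 CPM in Rnf111+/- and 127, 144 and 125 CPM in wild-type libraries. The groups did not overlap, and it fell by 0.34 (SE 0.09, adjusted p = 0.0456, edgeR), a call that was lost without any 1 library other than wild-type replicate 3 (adjusted p = 0.0573 to 0.174) and under upper-quartile scaling (0.0517).

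Membrane regulators came next. Cd59a, which blocks the membrane attack complex, was at 17.9, 20.8 and 21.6 CPM in Rnf111+/- and 28.8, 23.5 and 34.2 CPM in wild-type libraries (-0.52 ± 0.15, adjusted p = 0.0619), and it passed with no filter (0.0277) and in DESeq2 (0.0176). Cd55, which speeds the decay of C3 convertases, was at 38.2 ± 0.473 CPM in Rnf111+/- and 41.8 ± 10.2 CPM in wild-type ovaries (adjusted p = 0.665), and Cr1l, the rodent regulator Crry, at 50.5 ± 6.20 CPM in Rnf111+/- and 51.2 ± 4.04 CPM in wild-type ovaries (adjusted p = 0.933). Cfi, the protease that inactivates C3b, was low at 0.646 ± 0.0304 CPM in Rnf111+/- and 1.04 ± 0.251 CPM in wild-type ovaries (adjusted p = 0.284). Csmd1, a membrane protein with complement control repeats, was at 22.8, 28.8 and 35.3 CPM in Rnf111+/- and 8.90, 6.84 and 16.7 CPM in wild-type libraries. Its groups did not overlap, and it narrowly missed the threshold in edgeR (1.42 ± 0.34, adjusted p = 0.0511). With the same 6 libraries it passed under upper-quartile scaling (0.0486), the stricter filter (0.0441), DESeq2 (3.83e-05) and limma-voom (0.022). It did not pass with DESeq2's size factors in edgeR (0.0511) or with no filter (0.159). Without wild-type replicate 3 it was at 1.89 ± 0.20 (adjusted p = 0.000331).

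**Figure D5:**
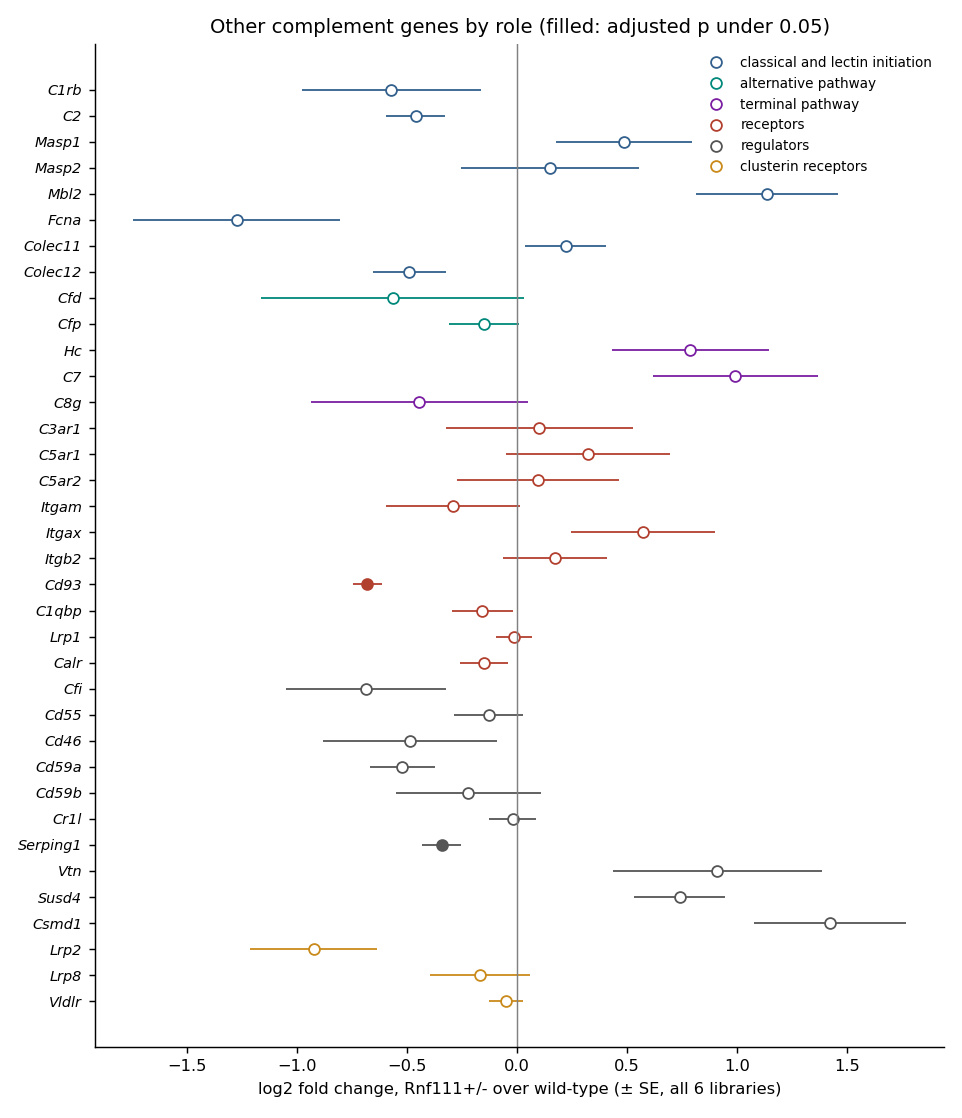
The horizontal axis gives the log2 fold change, Rnf111+/- over wild-type, with its standard error, of other tested complement genes from all 6 libraries, coloured by role, and filled points are those with an adjusted p under 0.05. Cd93 and Serping1 were the 2 genes that passed with all libraries, both to the left of 0.

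Likeness over the 6 libraries was read as Pearson's r of log2 CPM among the 10625 tested genes whose mean reached 10 CPM, as a description over libraries that include both genotypes. The nearest genes to C1qa were Niban1 (0.992), C1qb (0.992), Trp53i11 (0.991), Piezo2 (0.990) and Cyth4 (0.989), with C1qc at rank 8 (0.988). Those nearest to C3 were Nkain4 (0.997), Cbwd1 (0.995), Arf6 (0.995), Kif1c (0.995) and Pcgf5 (0.995), while C1s1 stood at rank 125 (0.970) and C1ra at rank 558 (0.916). Those nearest to Clu were Tex30 (0.996), Asb4 (0.994), Eif4e3 (0.994), Lrp11 (0.993) and Zfp560 (0.992). The C1q genes thus ordered the libraries differently from C3 and Clu, with r of -0.20 between C1qa and C3, 0.20 between C1qa and Clu and -0.90 between C3 and Clu.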

How the data were processed

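Bulk RNA was sequenced from 3 Rnf111+/- and 3 wild-type ovaries, extracted with TRIzol and prepared with the VAHTS Universal V6 kit per the labels' protocols. The authors deposited raw read counts per gene. The submitters' processing notes name fastp 0.20.1, HISAT2 2.1.0, HTSeq 0.11.2, DESeq2 1.38.3 and build GRCm39, while neither the annotation nor the strand setting is stated in the sources used here. Reads of overlapping genes or close copies could therefore have been split or dropped.

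Groups came from the genotype label. Genes passing filterByExpr (minimum count 10, minimum total 15) were scaled by TMM and tested with edgeR 4.0.16 (R 4.3.3) by the robust quasi-likelihood test over all 6 libraries, with Benjamini-Hochberg adjustment over the 16841 genes tested and a threshold of 0.05. Standard errors are the log2 fold change over the square root of F. Alternatives were DESeq2's size factors, upper-quartile scaling, no filter, a stricter filter, DESeq2 1.42.0, limma-voom (limma 3.58.1), a replicate block and leaving out each library. The procedure was tested on simulated data. Likeness used log2 CPM with a prior count of 2. The floor of 3 counts is 0.0747 to 0.0784 CPM and covers counting error only.

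The members and gene lists were chosen with earlier results of these data known. Named genes are the 9 members, Rnf111, the called genes of each role list or otherwise up to 2 of smallest p, a short set of further components and regulators (1 of them is not reported here), up to 3 abundant markers a list, and the 5 genes most like C1qa, C3 and Clu. Nothing says that the ovaries came from separate litters, so p-values measure the spread between these samples.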

Additional observations from a re-analysis of the deposited data

How the results depend on the processing

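C3, Cfb and Clu kept their direction and their side of the threshold in all 13 alternatives. Leaving out 1 library moved the count of all genes that rose to between 224 and 1273 and of those that fell to between 297 and 1522, of the 9 genes that rose to between 1 and 4 and that fell to between 1 and 3, and of the other complement and inducer genes that rose to between 0 and 6 and that fell to between 1 and 5. It moved the log2 value of C1qa to between -0.27 and 0.44, of C1qb to between -0.25 and 0.38, of C1qc to between -0.18 and 0.38, of C1ra to between -0.63 and -0.36, of C1s1 to between -0.84 and -0.54 and of C4b to between -1.15 and -0.57. The positive C1q values of 0.44, 0.38 and 0.38 were those without wild-type replicate 3, and the cause was not tested.

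With DESeq2, 1172 of all genes rose (6.96%) and 1443 fell (8.57%), while 1 of the 9 genes rose and 4 fell. DESeq2 called 5 rises and 7 falls among the other complement and inducer genes. It also called C1ra at -0.49 and C4b at -0.90, and without a filter C1ra was called at -0.50. Of the other complement and inducer genes, 1 rose and 3 fell in edgeR, 2 rose under upper-quartile scaling and with limma-voom, 3 rose under the stricter filter, and 5 fell without a filter. With the replicate block, 1 of the 9 genes rose and 2 fell, and 4 of the other complement and inducer genes rose and 2 fell. The block called C7 at 1.01 (adjusted p = 0.0166), Csmd1 at 1.49 (0.0101) and Susd4 at 0.71 (0.0267) and lost Serping1 (0.0575). Same-numbered libraries correlated at 0.012, 0.0057 and 0.100 in their deviations from the group means, and Rnf111+/- replicate 1 correlated best with wild-type replicate 2 (0.0564), so the numbers were not read as pairs. Of the 9 genes Cfb had the fewest counts, so its values have the widest counting error.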

Other observations

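The list of inducer genes was read beside the complement genes. It holds cytokines and transcription factors known to induce complement transcription, and also Socs3, Nfkbia, Lcn2, Saa3 and Hp, which are neither. Of its 16 genes, 15 were tested, 1 rose, 1 fell and 13 did not pass, where 3.90% of all tested genes rose and 5.74% fell. The median log2 fold change of the whole list was -0.35 with all libraries and -0.04 without wild-type replicate 3. Cebpb, a transcription factor of the acute phase response, was at 87.8, 112 and 96.4 CPM in Rnf111+/- and 174, 227 and 134 CPM in wild-type libraries. Every Rnf111+/- library lay below every wild-type library, and Cebpb fell by 0.85 on the log2 scale (SE 0.19, adjusted p = 0.0394, edgeR). The call was lost without any 1 of the Rnf111+/- libraries or wild-type replicate 1 (adjusted p = 0.0855 to 0.131) and without a filter (0.114), and it held without wild-type replicate 3 (0.00265). Its relative Cebpd was at 14.6, 16.9 and 16.7 CPM in Rnf111+/- and 9.37, 12.1 and 11.6 CPM in wild-type libraries. Here every Rnf111+/- library lay above every wild-type library, and Cebpd rose by 0.54 (SE 0.14, adjusted p = 0.0472, edgeR), a call lost without any 1 library other than wild-type replicate 3 (adjusted p = 0.0777 to 0.167). Any relation of these genes to C3, C1s1 or Clu was not tested.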
